A study of Homo sapiens with 3 samples.

Results

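The genes described here encode the proteins that copy DNA and supply its nucleotides. They are 45 genes of 50868 in the table, chosen by name from their known function, and each was found under 1 identifier. Their RNA was sequenced in AGS cells, a line from a human gastric adenocarcinoma, 48 h after addition of DMSO (the vehicle), SFA at 12 µM or SFE at 18 µM. Each condition has 1 library, so no spread between cultures is known and no test was possible. All 3 groups are the same line grown in the same medium and differ by the agent added, and nothing in the sources used here says what SFA and SFE stand for.

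Replication starts where the origin recognition complex, CDC6 and CDT1 load the MCM2-7 helicase onto DNA in G1, which geminin (GMNN) prevents later in the cycle. CDC45 and the GINS complex join MCM2-7 to form the active helicase, polymerase alpha with primase lays down primers, and polymerases epsilon and delta extend the leading and lagging strands on the sliding clamp PCNA, which the RFC complex loads. Ribonucleotide reductase, thymidylate synthase and thymidine kinase make the deoxynucleotides. Many of these genes are transcribed in late G1 and S phase under E2F factors, so in cultured cells their RNA is known to follow the share of cells that cycle.

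The total count was 18767232 with DMSO, 13639844 with SFA and 13644676 with SFE. Of a list of epithelial markers, the keratins KRT8, KRT18 and KRT7 stood between 118 and 534 FPKM with DMSO. FPKM is the count per length of the gene and per total count of the library, so it can be set side by side between genes. Of the 8 epithelial markers, however, 4 stayed under 1 FPKM in every library. These were EPCAM (highest 0.336 FPKM), KRT19 (highest 0.162 FPKM), CDH1 (highest 0.162 FPKM) and CLDN7 (highest 0.550 FPKM). The summed level of the epithelial list was 1071 FPKM with DMSO and 680 FPKM with each compound. KRT8 was 1.87-fold lower with SFA and 1.80-fold lower with SFE, and KRT18 1.83-fold and 1.81-fold lower, which is further from DMSO than every member except POLE3 with SFA. The other epithelial markers that reached 1 FPKM, KRT7 and CLDN4, went the other way. KRT7 was 1.37-fold higher with SFA and 1.28-fold higher with SFE, and CLDN4 1.33-fold and 1.16-fold higher. Of 6 fibroblast markers, 3 reached 1 FPKM: COL1A1, COL3A1 and PDGFRB, at 11.3, 8.47 and 6.39 FPKM with DMSO. The summed level of that list was 26.6 FPKM in the DMSO library, 10.3 in the SFA library and 12.7 in the SFE library. COL1A2, DCN and LUM of that list stayed under 1 FPKM. No leukocyte, endothelial, erythroid or hepatocyte marker reached 1 FPKM. The part of these epithelial and fibroblast differences in the results below was not tested. In bulk RNA, fewer cycling cells and less RNA per cell cannot be told apart.

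The promoters of some members hold sequence words that the choice of genes did not use and that related genes hold too. RefSeq (GRCh38.p14) gave a promoter for 39 of the 45 members. In the 250 bases before the start, both strands were searched for 4 words of the E2F type (TTTCCCGC, TTTCGCGC, TTTGCCGC and TTTGGCGC), for CCAAT, the box bound by NF-Y, and for TTTGAA, the CHR element known from mitotic genes. An E2F-type word was present in 12 of 39 member promoters (30.8%) and in 2.79% of the 35116 promoters in the table. Members and genes of the lists below were each counted by the first promoter given for them. The 35116 promoters are all entries, not reduced to 1 per gene. CCAAT was present in 21 (53.8%) against 32.0% of all promoters, and TTTGAA in 1 (2.56%) against 13.3%. Among promoters of related genes, an E2F-type word was present in 24% of 25 regulators of the G1/S transition, 15% of 40 other replication genes, 5.88% of 34 mitosis genes and 3.03% of 33 other nucleotide synthesis genes. CCAAT was present in 70.6% of the mitosis genes, a larger share than in members, in 50% of the other replication genes, 39.4% of the other nucleotide synthesis genes and 28% of the G1/S regulators. TTTGAA was present in 47.1% of the mitosis genes and in at most 7.5% of each other list. The windows also differed in base composition, with a median GC content of 64.8% in members and 58.0% in all promoters. All 4 E2F-type words contain the pair CG. The median number of CG pairs per window was 23 in members, 11 in all promoters and between 19 and 24 in the related lists. The part of base composition in these shares was not tested. A match is a description of the letters and not a binding site, and a window with no match says nothing about the factor.

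Sequences are printed, in the direction of transcription, for 3 members whose promoters hold these words. They are also printed for the 4 members furthest from DMSO on the log2(FPKM + 1) scale used below. These are POLE3 and RFC2, highest with SFA, and TK1 and DUT, lowest with SFE. On count ratios, GINS1, POLE2 and ORC2 with SFA were further from DMSO than DUT with SFE. Each printed sequence ends at the RefSeq start or, where that start lies inside the deposited gene span, at the edge of the span. Capitals mark E2F-type words and CCAAT on either strand. In MCM6, each of the 2 capital stretches of the form TTTGGCGCGAAA holds 2 overlapping E2F-type words, 1 per strand.
MCM6, chr2:135876444-135876693, minus strand: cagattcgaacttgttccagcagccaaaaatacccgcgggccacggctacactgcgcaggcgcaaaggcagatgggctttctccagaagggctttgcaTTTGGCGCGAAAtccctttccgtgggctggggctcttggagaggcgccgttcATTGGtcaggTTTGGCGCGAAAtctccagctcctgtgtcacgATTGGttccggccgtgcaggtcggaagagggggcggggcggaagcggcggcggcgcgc
PCNA, chr20:5126627-5126872, minus strand: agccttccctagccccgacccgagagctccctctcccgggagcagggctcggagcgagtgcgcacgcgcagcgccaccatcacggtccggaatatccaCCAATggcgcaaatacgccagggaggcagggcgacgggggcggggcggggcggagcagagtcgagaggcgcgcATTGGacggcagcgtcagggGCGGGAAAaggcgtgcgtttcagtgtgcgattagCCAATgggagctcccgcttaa
MCM3, chr6:52284882-52284992, minus strand: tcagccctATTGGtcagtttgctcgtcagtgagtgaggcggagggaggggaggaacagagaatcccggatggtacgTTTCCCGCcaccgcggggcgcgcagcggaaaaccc
POLE3, chr9:113410750-113410999, minus strand: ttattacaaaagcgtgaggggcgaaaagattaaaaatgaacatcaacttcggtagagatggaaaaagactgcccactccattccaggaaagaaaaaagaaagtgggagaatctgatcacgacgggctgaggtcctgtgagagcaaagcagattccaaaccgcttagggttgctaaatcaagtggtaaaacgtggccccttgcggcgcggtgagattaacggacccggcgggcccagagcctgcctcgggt
RFC2, chr7:74254459-74254649, minus strand: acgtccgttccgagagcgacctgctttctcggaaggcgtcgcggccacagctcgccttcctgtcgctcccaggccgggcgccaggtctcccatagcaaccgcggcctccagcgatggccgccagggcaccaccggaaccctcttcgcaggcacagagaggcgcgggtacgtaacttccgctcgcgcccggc
TK1, chr17:78187234-78187454, minus strand: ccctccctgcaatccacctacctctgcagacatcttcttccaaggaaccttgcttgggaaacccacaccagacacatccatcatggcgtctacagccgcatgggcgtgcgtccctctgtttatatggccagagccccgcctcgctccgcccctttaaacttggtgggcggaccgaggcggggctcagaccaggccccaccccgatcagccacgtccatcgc
DUT, chr15:48330845-48331010, plus strand: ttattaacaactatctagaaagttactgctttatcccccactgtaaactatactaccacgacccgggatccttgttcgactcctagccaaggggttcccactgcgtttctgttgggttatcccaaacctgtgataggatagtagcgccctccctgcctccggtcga
MCM6 holds 4 E2F-type words and 2 CCAAT boxes here, and PCNA holds 1 and 3. No E2F-type word or CCAAT was found before the start of POLE3, RFC2, TK1 or DUT. The printed sequences are no sample of the members. Of the other members at least 1.3-fold from DMSO on count ratios, POLA1 holds 1 of each. ORC2, GINS1 and PRIM1 hold 1 CCAAT each, GINS3 and POLE2 hold neither, and no promoter was given for POLD3 and RPA3. MCM2, GMNN, RFC4, POLD1 and FEN1, all within 1.3-fold of DMSO, hold neither as well.

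**Figure D1:**
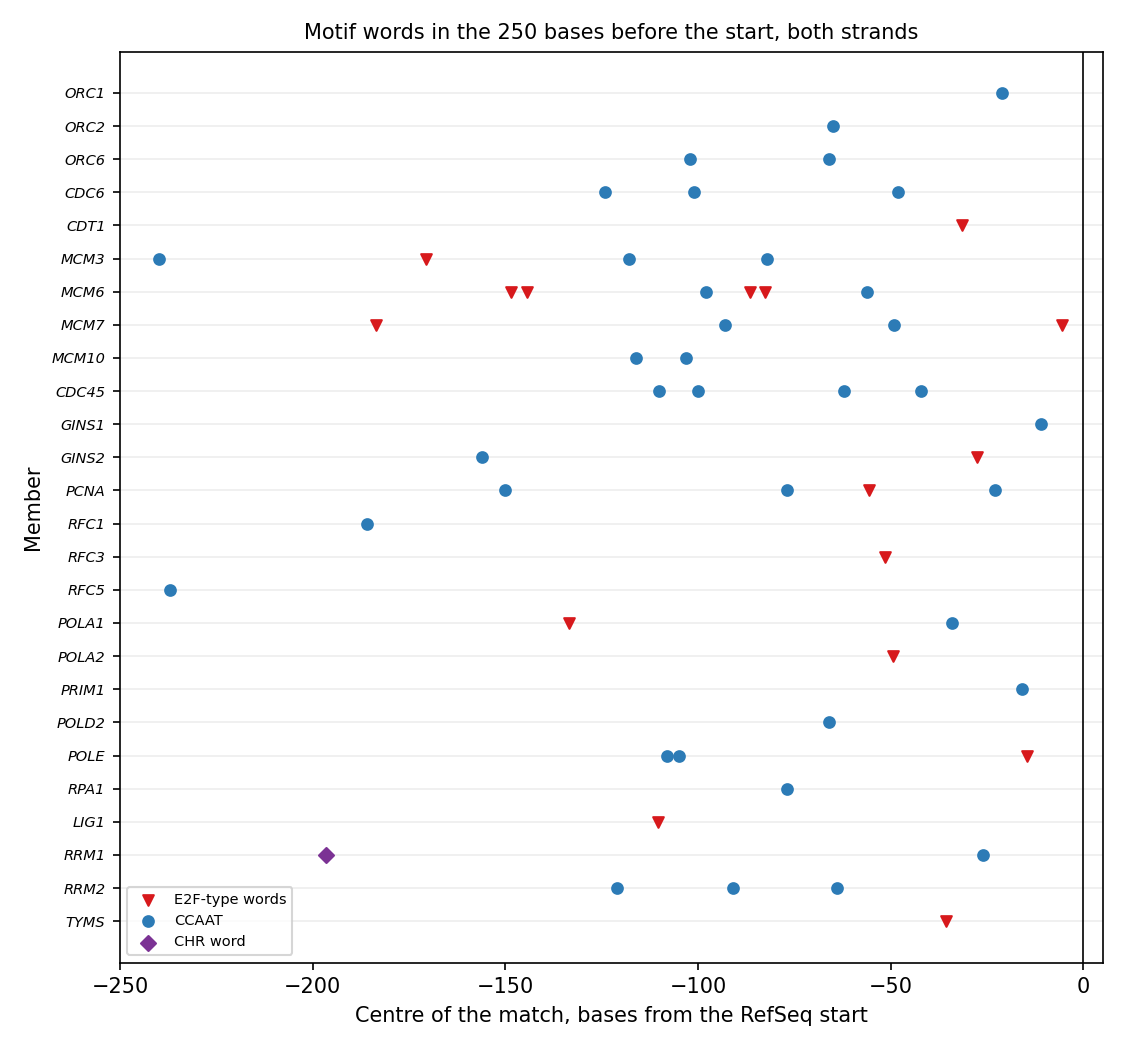
Motif words in the 250 bases before the RefSeq start of the 26 members that hold at least 1 of them. The x axis gives the centre of each match in bases from the start, each row is a member, and colours separate E2F-type words, CCAAT and the CHR word. MCM6 and MCM7 hold more than 1 E2F-type word, and RRM1 is the member with a CHR word.

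The replication genes as a whole stood close to their DMSO levels with both compounds. Together they took 0.598% of all counts with DMSO (95% exact Clopper-Pearson interval 0.595 to 0.602), 0.606% with SFA (0.602 to 0.610) and 0.610% with SFE (0.606 to 0.614). Intervals here and below cover counting error only, since 1 library per condition gives no spread between cultures. Reads were also not counted as molecules, which the intervals do not take into account. Summed FPKM was 975, 1010 and 987. The higher share with SFA rested on POLE3: without that gene the shares were 0.591%, 0.587% and 0.603%, and the summed FPKM 951, 952 and 967. In the DMSO library members ranged from 1.71 FPKM (RFC1) to 88.3 FPKM (MCM2), with a median of 14.5, and all 45 passed the filter of 1 FPKM in at least 1 library.

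Differences are given as log2(FPKM + 1) in a treated library minus the same with DMSO, a scale on which the change of a gene at a low level appears smaller than its fold. With SFA, 3 members were at least 1.3-fold higher and 1 was at least 1.3-fold lower, and 41 of 45 (91.1%) lay within that fold. Among all 11680 genes that passed the filter, 11.9% were at least 1.3-fold higher and 10.3% lower with SFA, 22.2% in all. With SFE, no member was at least 1.3-fold higher, against 11.9% of all genes, and 2 were at least 1.3-fold lower, against 7.86%. In either direction this was 2 of 45 members against 19.8% of all genes. At 1.5-fold, 1 member was higher with SFA (5.36% of all genes) and none lower (4.67%), and with SFE none was higher (5.34%) and 1 was lower (3.48%). Under TMM scaling, which matches the libraries by a trimmed mean of their gene ratios, the shares of all genes at least 1.3-fold higher and lower were 9.97% and 12.9% with SFA and 8.85% and 11.1% with SFE, so the split turned toward lower. As deposited, the shares of members outside these folds were below the background in both directions, with 1 library each and no test.

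The median difference of the 45 members was −0.08 with SFA, against 0.01 over all genes, and 0.01 with SFE, against 0.03. Under TMM and median-of-ratios scaling the SFE median of members turned to −0.07 and −0.06, as that of all genes turned to −0.05 and −0.03. The SFA median of members was −0.14 and −0.12, and that of all genes −0.04 and −0.02. With SFA, 26 of 45 members (57.8%) were below DMSO by any amount, against 48.6% of all genes. With SFE this was 20 of 45 (44.4%) against 44.8%. Under TMM scaling 30 of 45 members were below DMSO with each compound, against 56.0% of all genes with SFA and 57.8% with SFE. With SFA, the 22 members that overlap no other listed gene had a median of 0.04 and the 23 that overlap one a median of −0.12. Over all genes the corresponding medians were 0.01 and 0.01. With SFE the medians were 0.07 and −0.09 in members, and 0.03 and 0.03 over all genes. Members that overlap no other gene also had a higher median level with DMSO, 18.1 FPKM against 10.6. Without a stated strand setting, reads of overlapping genes cannot be told apart, and the part of overlap in the member values was not tested.

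**Figure D2:**
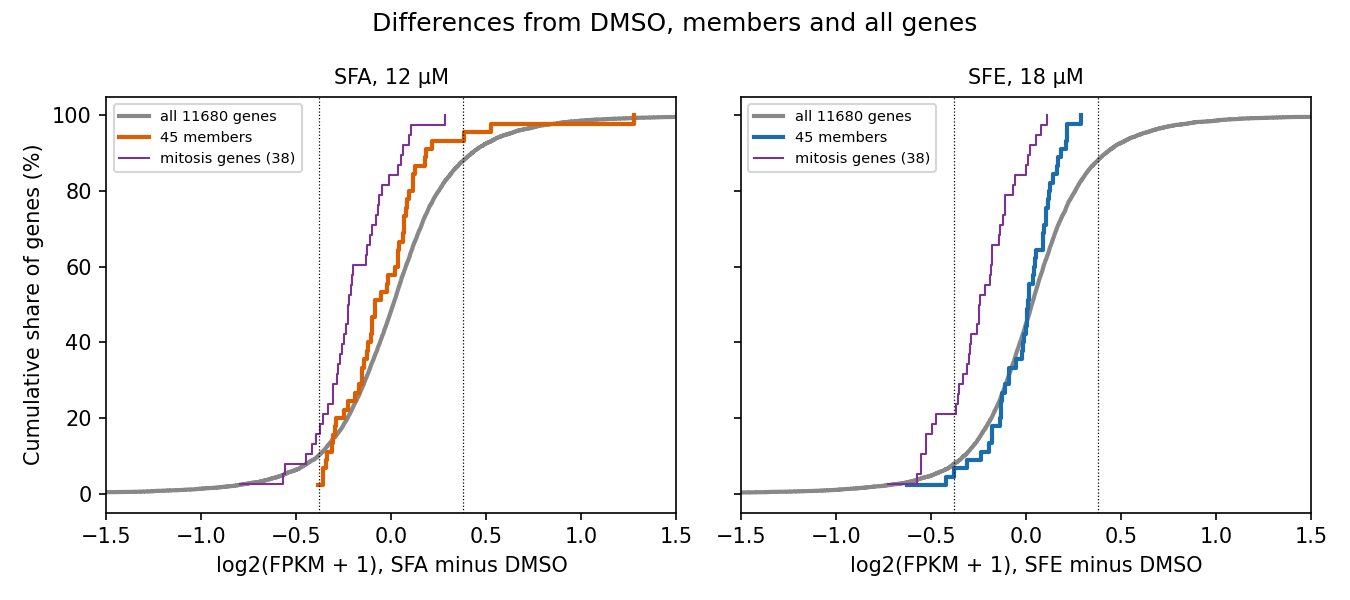
Cumulative share of genes (y axis, percent) against the log2(FPKM + 1) difference from DMSO (x axis) with SFA (left) and SFE (right) for all 11680 genes, the 45 members and 38 mitosis genes. Dotted lines mark 1.3-fold. The member curves are steeper than the curve of all genes, with 41 of 45 members within 1.3-fold with SFA and 43 with SFE.

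Genes of origin licensing were within 1.3-fold of DMSO on the log2(FPKM + 1) scale, except ORC2 with SFA. CDT1, which brings the helicase to origins, was the highest at 53.6 (DMSO), 58.0 (SFA) and 60.2 FPKM (SFE), the order of libraries used below. ORC2, a core subunit of the origin recognition complex (ENSG00000115942, chr2:200908973-200963680), was the lowest. Its levels were 4.82, 3.46 and 3.69 FPKM, so both treated libraries were below the control. Its count per total count was 1.40-fold lower with SFA (95% counting interval 1.23 to 1.59) and 1.31-fold lower with SFE (1.15 to 1.48). Another subunit, ORC1, stood at 22.3, 23.3 and 23.9 FPKM, and ORC6 at 6.00, 6.20 and 5.59 FPKM. CDC6, the loading ATPase, stood at 17.0, 18.2 and 19.3 FPKM. GMNN, the inhibitor of CDT1, stood at 9.96, 8.84 and 9.86 FPKM. A share of 4.39% of ORC2's exonic bases is also exonic in AC005037.3, which had at most 7 counts in any library.

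The MCM2-7 helicase genes had the highest summed level of any role, at 275, 295 and 303 FPKM. MCM2 stood at 88.3, 100.5 and 102.9 FPKM. Its ratio to DMSO was 1.14 with SFA (1.11 to 1.17) and 1.17 with SFE (1.13 to 1.2). MCM3 stood at 68.9, 75.1 and 79.8 FPKM, with ratios of 1.09 (1.05 to 1.13) and 1.16 (1.12 to 1.2). For these abundant genes both treated libraries were above the control by more than counting error, but by less than 1.3-fold. MCM7 stood at 48.6, 49.7 and 48.9 FPKM, MCM5 at 28.4, 29.7 and 29.3, MCM4 at 21.8, 21.5 and 22.7 and MCM6 at 19.2, 18.5 and 18.9. The 6 subunits form a ring with 1 copy of each, while their RNA levels spanned 19.2 to 88.3 FPKM with DMSO. With SFE 5 of the 6 were above DMSO, but 2 of 6 under TMM or median-of-ratios scaling, namely MCM2 and MCM3. Of all genes, 44.8% were below DMSO with SFE as deposited, 57.8% under TMM and 55.3% under median-of-ratios scaling.

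Among genes that activate the helicase, GINS1 and GINS3 were lower with SFA and near DMSO with SFE. GINS1 stood at 2.87, 2.01 and 2.84 FPKM, from 243, 124 and 175 counts. It was 1.42-fold lower with SFA (1.14 to 1.78), and with SFE its ratio was 0.991 (0.811 to 1.21). GINS3 stood at 3.79, 2.79 and 3.81 FPKM, 1.36-fold lower with SFA (1.2 to 1.53) and at a ratio of 1.01 with SFE (0.900 to 1.12). CDC45, the partner of GINS in the active helicase, stood at 11.2, 9.39 and 11.5 FPKM. GINS2 was the highest of this role at 19.3, 17.0 and 17.6 FPKM, whereas GINS4 stood at 3.52, 3.76 and 4.26 FPKM. In GINS4, 23.6% of exonic bases are shared with other listed genes, and in GINS3 10.9%, so both are uncertain. MCM10, which helps to activate and stabilise the helicase, stood at 2.75, 2.69 and 2.79 FPKM, the lowest of this role with DMSO and with SFE. In this role 5 of 6 genes were below DMSO with SFA under all 3 scalings. Of all genes, 48.6% were below with SFA as deposited, 52.5% under median-of-ratios and 56.0% under TMM scaling. With SFE 2 of 6 were below as deposited and 5 of 6 under either other scaling. Of all genes, this was 44.8% as deposited, 55.3% under median-of-ratios and 57.8% under TMM scaling.

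The clamp and its loader were within 1.3-fold of DMSO except for RFC2 in the SFA library. PCNA, the clamp, stood at 76.0, 77.8 and 82.6 FPKM, and its ratios to DMSO were 1.02 (0.964 to 1.09) and 1.09 (1.03 to 1.15). RFC2 (ENSG00000049541, chr7:74231499-74254458), a small subunit of the loader that overlaps no other gene, stood at 11.8, 17.3 and 12.7 FPKM. The SFA library stood apart from the other two, 1.47-fold above DMSO (1.36 to 1.60), and the SFE ratio was 1.08 (0.994 to 1.18). The other small subunits did not share this: RFC3 stood at 11.0, 10.0 and 9.64 FPKM, RFC4 at 8.65, 8.78 and 9.49, and RFC5 at 12.9, 13.7 and 12.4. RFC5 shares 10.6% of its exonic bases with other listed genes, so its value is uncertain. Among them, WSB2 had 2164, 1870 and 1950 counts against 1505, 1163 and 1051 for RFC5. RFC1, the large subunit, was the lowest member of all at 1.71, 1.45 and 1.47 FPKM.

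POLE3 had the largest difference of any member. POLE3 (ENSG00000148229, chr9:113407235-113410672) encodes a small histone-fold subunit of polymerase epsilon that also occurs in a chromatin-remodelling complex. Its counts were 1438, 2600 and 882, which is 23.0, 57.3 and 19.4 FPKM. The SFA library was 2.49-fold above DMSO (2.33 to 2.66), and the SFE library 1.19-fold below it (1.09 to 1.29). Of the other subunits of polymerase epsilon, POLE and POLE2 were below DMSO with SFA, whereas POLE4, which is no member and is described with the other replication genes, was above it. POLE, the catalytic subunit, stood at 12.0, 9.90 and 13.2 FPKM, 1.21-fold lower with SFA (1.16 to 1.26) and at a ratio of 1.10 with SFE (1.06 to 1.14). POLE2 stood at 3.19, 2.26 and 2.81 FPKM, 1.41-fold lower with SFA (1.15 to 1.73). POLE3 shares 3.99% of its exonic bases with C9orf43 on the opposite strand, which had 28, 30 and 24 counts.

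Subunits of polymerase alpha and primase also differed among themselves. POLA1, the catalytic subunit, stood at 7.16, 5.59 and 5.28 FPKM, lower in both treated libraries. It was 1.28-fold lower with SFA (1.16 to 1.42) and 1.36-fold lower with SFE (1.23 to 1.5). Its partner POLA2 stood at 15.8, 16.5 and 16.9 FPKM. PRIM1, the catalytic primase subunit (ENSG00000198056, chr12:56731596-56752373), stood at 6.75, 9.12 and 7.80 FPKM, above DMSO in both treated libraries, with ratios of 1.35 (1.19 to 1.53) and 1.15 (1.02 to 1.31). PRIM2, the large primase subunit, stood at 4.96, 4.53 and 4.53 FPKM. PRIM1 shares 6.77% of its exonic bases with NACA or HSD17B6, and NACA, on the same strand, had 1730, 1257 and 1150 counts against 536, 526 and 450 for PRIM1, so its value is uncertain. Under TMM and median-of-ratios scaling its SFA difference of 0.38 became 0.33 and 0.36, less than 1.3-fold.

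In polymerase delta, POLD1, the catalytic subunit, was the highest polymerase gene in the control, with 30.1, 28.0 and 27.4 FPKM. POLD2 stood at 27.3, 29.6 and 29.4 FPKM. POLD3 stood at 2.61, 1.91 and 2.84 FPKM, the lowest polymerase gene with DMSO and with SFA. It was 1.37-fold lower with SFA (1.16 to 1.62), and its ratio with SFE was 1.09 (0.939 to 1.26). POLD3 shares 2.23% of its exonic bases with AP001372.2 on the same strand, which had 23, 13 and 19 counts.

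RPA coats single-stranded DNA as a trimer, and its subunits differed from DMSO in different directions with SFA. RPA3, the smallest, stood at 4.59, 3.40 and 4.66 FPKM, 1.35-fold lower with SFA (1.16 to 1.58) and at a ratio of 1.02 with SFE (0.883 to 1.17). RPA3 shares 3.65% of its exonic bases with UMAD1 on the opposite strand. UMAD1 had 10, 9 and 53 counts against 481, 259 and 355 for RPA3. RPA2 stood at 23.7, 27.6 and 26.2 FPKM, with ratios of 1.17 (1.08 to 1.26) and 1.11 (1.03 to 1.2). RPA1 stood at 26.4, 24.1 and 24.7 FPKM. FEN1, the flap nuclease of Okazaki fragments, was the highest of the strand maturation genes at 46.1, 43.4 and 46.4 FPKM. LIG1, the ligase that seals them, stood at 6.69, 5.74 and 6.68 FPKM. FEN1 shares 8.68% of its exonic bases with TMEM258 or FADS2. FADS2, on the same strand, had 1322, 636 and 764 counts against 3325, 2275 and 2429 for FEN1, whose value is therefore uncertain.

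**Figure D3:**
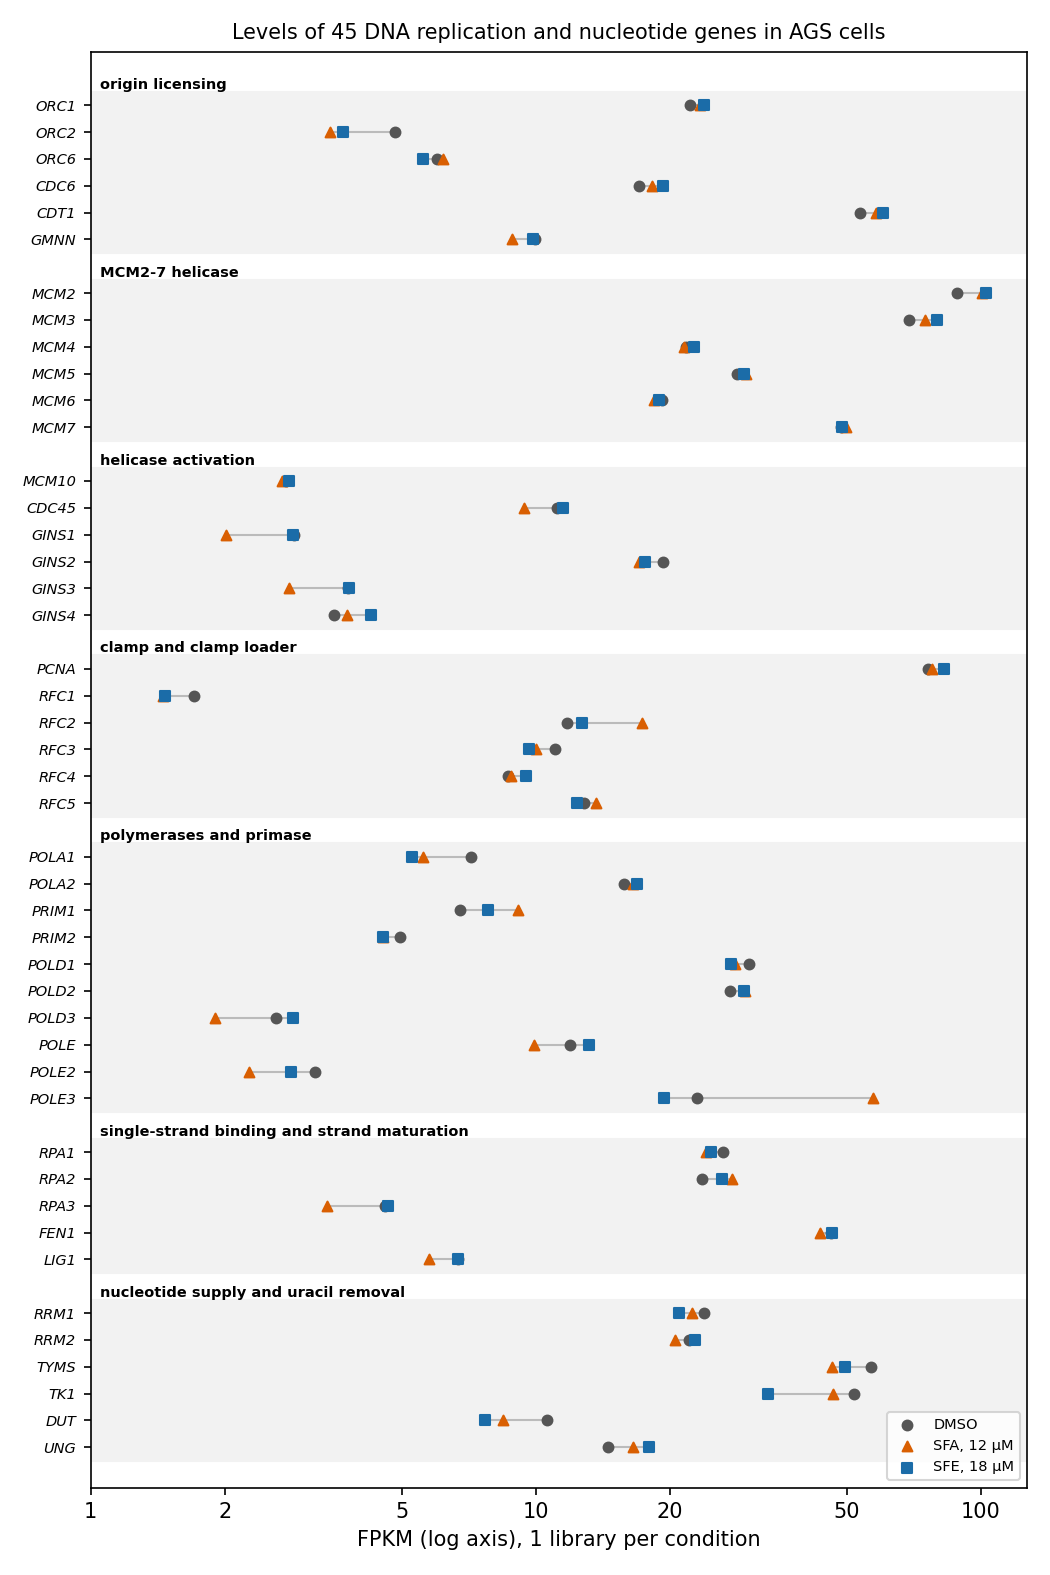
FPKM (x axis, log scale) of each of the 45 members, grouped by role, with DMSO (grey circles), SFA (orange triangles) and SFE (blue squares), 1 library each. The 3 symbols lie close together for most members. POLE3 (57.3 FPKM with SFA against 23.0 with DMSO) and TK1 (33.3 FPKM with SFE against 51.9) are the widest apart.

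In nucleotide supply, 5 of 6 genes were below DMSO with SFA (48.6% of all genes) and 4 of 6 with SFE (44.8% of all genes). Its summed level was 180, 161 and 152 FPKM. TK1 (ENSG00000167900, chr17:78174075-78187233), the thymidine kinase of the salvage pathway, overlaps no other gene and had 3742, 2442 and 1747 counts. Its levels were 51.9, 46.6 and 33.3 FPKM, with the SFE library lowest. With SFE it was 1.56-fold lower (1.47 to 1.65), the largest difference of any member with that compound, and with SFA 1.11-fold lower (1.06 to 1.17).

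DUT (ENSG00000128951, chr15:48331011-48343373), which breaks down dUTP, stood at 10.6, 8.46 and 7.68 FPKM. It was 1.25-fold lower with SFA (1.15 to 1.36) and 1.38-fold lower with SFE (1.27 to 1.51), although 14.5% of its exonic bases are shared with another gene. TYMS, thymidylate synthase, stood at 56.8, 46.2 and 49.5 FPKM, 1.23-fold lower with SFA (1.17 to 1.29) and 1.15-fold lower with SFE (1.09 to 1.2). Its 3′ neighbour ENOSF1 and the antisense gene TYMSOS cover 46.6% of its exonic bases, so that value is uncertain too. ENOSF1 had 953, 755 and 683 counts against 4663, 2760 and 2958 for TYMS.

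Of ribonucleotide reductase, both members were within 1.3-fold of DMSO. RRM1, the large subunit, stood at 23.8, 22.4 and 21.0 FPKM, and RRM2, the small subunit made in S phase, at 22.2, 20.6 and 22.8 FPKM. RRM2B, the alternative small subunit, is no member and was singled out after its values were seen. It stood at 1.85, 1.01 and 0.915 FPKM, 1.83-fold lower with SFA (1.5 to 2.25) and 2.02-fold lower with SFE (1.65 to 2.5). UNG, the glycosylase that removes uracil from DNA, was the gene of this role above DMSO with both compounds. It stood at 14.5, 16.6 and 18.0 FPKM, with ratios of 1.14 (1.06 to 1.22) and 1.24 (1.16 to 1.33). Under TMM or median-of-ratios scaling 5 of the 6 were below DMSO with each compound. Of all genes, these shares were 56.0% and 52.5% with SFA and 57.8% and 55.3% with SFE.

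**Figure D4:**
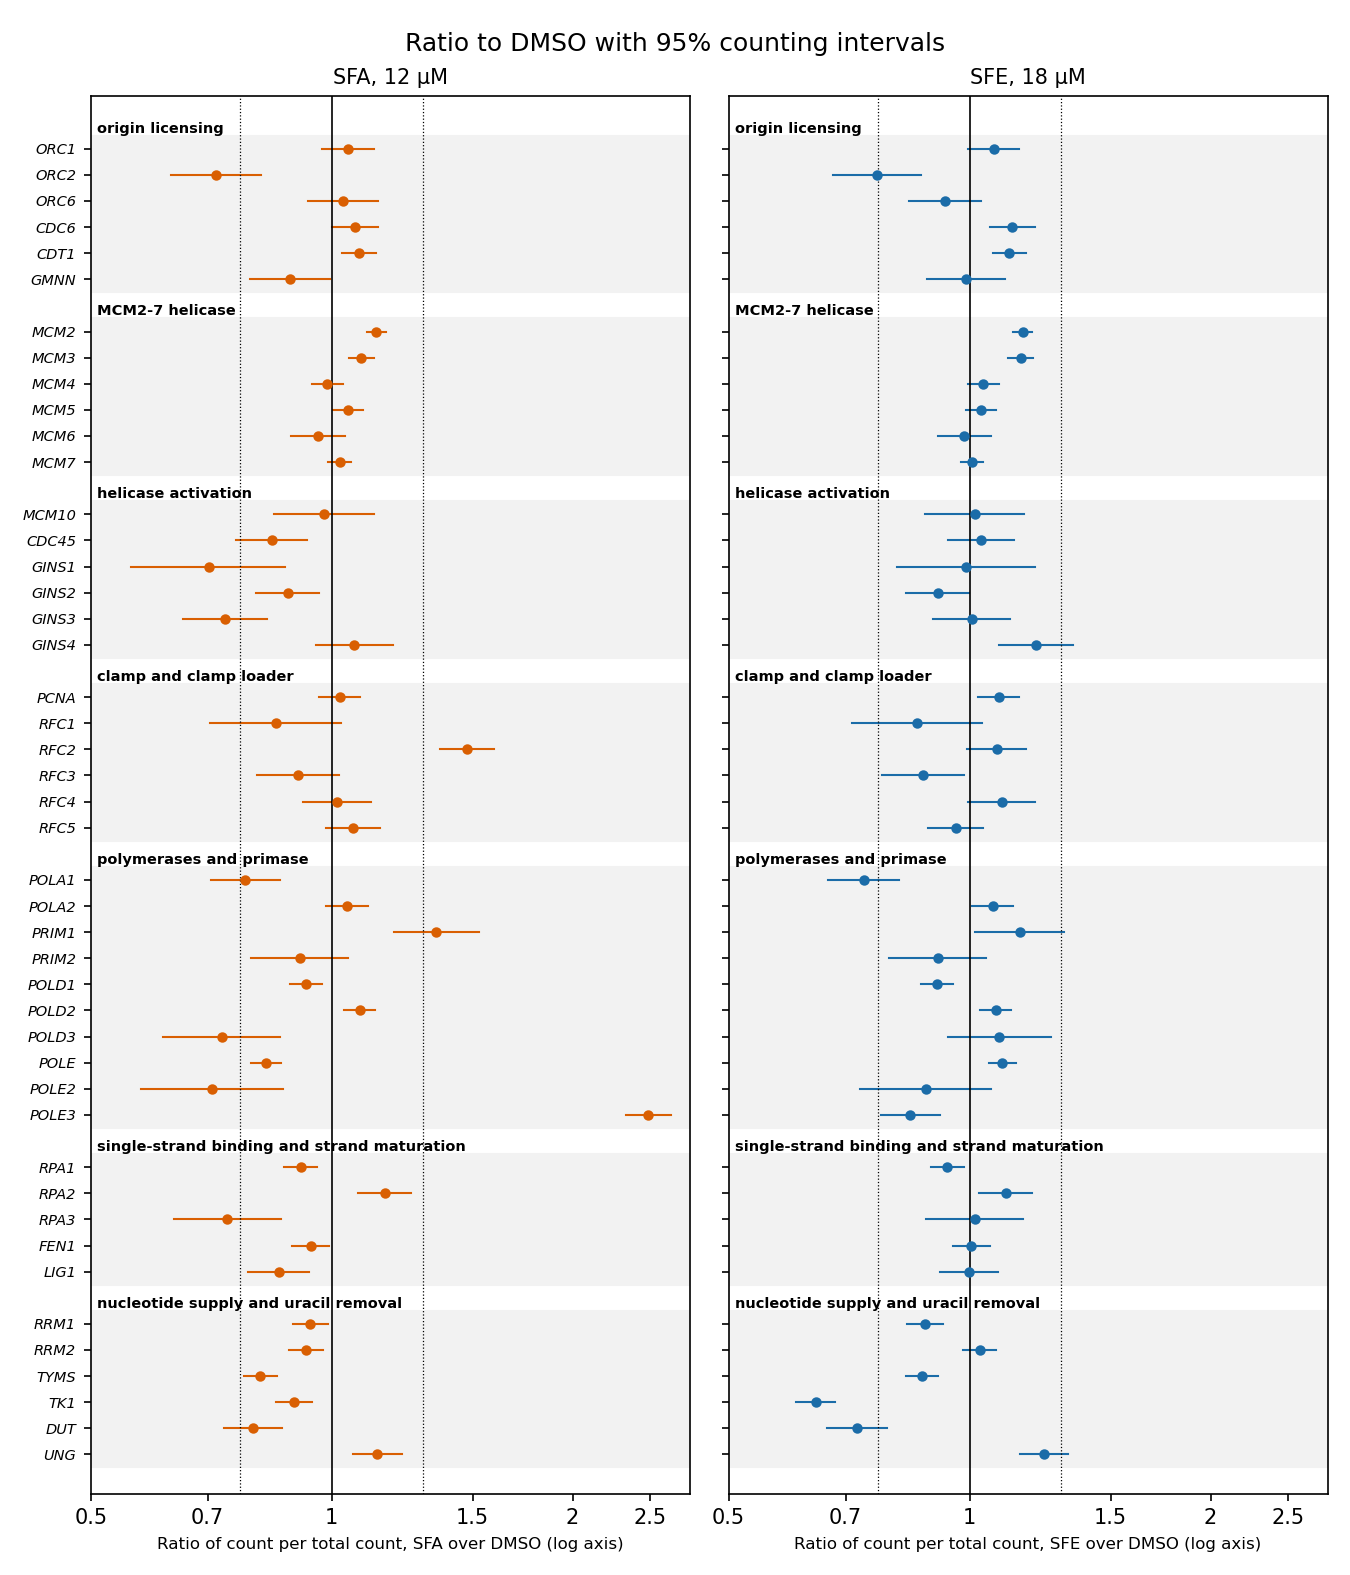
Ratio of count per total count to DMSO (x axis, log scale) with its 95% counting interval for each of the 45 members, by role, with SFA (left) and SFE (right). Dotted lines mark 1.3-fold, and the intervals do not cover the spread between cultures. POLE3 and RFC2 lie to the right with SFA, and TK1 lies to the left with SFE.

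The members furthest below DMSO with SFA all had low RNA levels. On count ratios, which use no pseudocount, 6 of 45 members were at least 1.3-fold lower with SFA, in place of 1, and 16.4% of all genes. They were ORC2, GINS1, GINS3, POLD3, POLE2 and RPA3. All 6 averaged between 1 and 5 FPKM over the 3 libraries, where 10 members lie, and 60.0% of those 10 compare with 18.9% of 5719 genes at that level. The median ratio of these 10 members was 0.739 with SFA and 0.998 with SFE, against 0.986 and 1.02 for all genes at that level. None of the 35 members at higher levels was that far below DMSO with SFA. The split by level was not part of the fixed plan. Of the 6, ORC2, GINS3, POLD3 and RPA3 share exonic bases with another listed gene. POLE2 overlaps other genes without shared exonic bases, and GINS1 overlaps none. The parts of level and overlap in these values were not tested. With SFE 4 members were at least 1.3-fold lower on count ratios (12.5% of all genes): ORC2, POLA1, TK1 and DUT. The compounds were given at different doses and share the 1 DMSO library, so their values stand side by side and were not compared.

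Other genes of DNA replication, from a list of 47 of which 44 passed the filter, had a median difference of −0.03 with SFA and 0.02 with SFE. At least 1.3-fold, 3 were higher and 6 lower with SFA, and 1 was higher and 3 lower with SFE. Among all genes, 11.9% were that far higher and 10.3% lower with SFA, and 11.9% and 7.86% with SFE. TOP2A, which untangles replicated DNA, stood at 25.4, 15.4 and 14.9 FPKM, 1.65-fold and 1.70-fold lower. KIAA0101 (PCLAF), a PCNA-binding factor, stood at 5.78, 3.74 and 7.36 FPKM, and TICRR, which helps to load CDC45, at 14.7, 10.0 and 13.3 FPKM. POLE4, the histone-fold partner of POLE3, stood at 4.43, 7.0 and 5.36 FPKM, with a ratio of 1.58 with SFA (1.34 to 1.86). RNASEH2C, a subunit of the nuclease that removes ribonucleotides from DNA, stood at 11.4, 16.2 and 15.3 FPKM, and the histone chaperone ASF1A at 6.46, 9.67 and 8.24. SUPT16H of the FACT complex stood at 7.81, 7.93 and 5.75 FPKM, and CHAF1B of chromatin assembly factor CAF-1 at 5.59, 7.34 and 7.30.

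Other genes of nucleotide synthesis, 41 of 41 measured, had medians of 0.03 and 0.00. With each compound, 2 were at least 1.3-fold higher and 3 lower. The shares of all genes were 11.9% higher and 10.3% lower with SFA, and 11.9% and 7.86% with SFE. PAICS, a purine synthesis enzyme, stood at 10.9, 8.11 and 8.09 FPKM. SAMHD1, which degrades deoxynucleotides, stood at 8.57, 5.76 and 7.67 FPKM, and GUK1, guanylate kinase, at 5.91, 8.11 and 6.78. SHMT2, which feeds one-carbon units to thymidylate synthesis, stood at 20.2, 24.3 and 26.3 FPKM, the mitochondrial kinase DGUOK at 21.0, 25.1 and 28.4, and the purine salvage enzyme APRT at 28.2, 24.4 and 22.6.

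Genes of the adjacent cell cycle phases were set beside the members. Of 38 mitosis genes measured, 32 were below DMSO with SFA and 32 with SFE, with medians of −0.23 and −0.24, against 26 and 20 of the 45 members and 48.6% and 44.8% of all genes. The 31 regulators of the G1/S transition had medians of −0.12 and −0.11. Whether these lists differ from the replication genes could not be tested with 1 library per group.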

How the data were processed

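RNA from 3 libraries of AGS cells was analysed (DMSO, SFA, SFE, grouped by the treatment label). The submitters' processing notes name hg38, StringTie 1.2.3 and HISAT2 2.0.4. What each did, and the counter, strand setting and annotation, are not given in the sources used here. Raw counts per gene and FPKM were deposited by the authors. The deposited FPKM equals the count over 1 length per gene and the library's total, within 0.0831% across libraries for 22070 genes.

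From these, log2(FPKM + 1) differences were computed for 11680 gene names that reached 1 FPKM in any library, keeping the identifier with the highest mean FPKM. Folds of single genes are ratios of count per total count with 95% exact conditional (Clopper-Pearson) intervals (scipy 1.17.1). No replicate exists, so no p-value was computed. TMM factors came from edgeR 4.0.16. The calculation was tested on simulated data. Spans of 43 members equal those of GENCODE 29, which gave strands and exons. Promoters are from RefSeq. All members could be named, with the 4 largest differences each way per compound among other replication and nucleotide genes at 5 FPKM or more. Alternatives covered pseudocount, filter, scaling, identifiers and overlap. The members and lists were chosen with earlier results of these data known.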

Additional observations from a re-analysis of the deposited data

How the results depend on the processing

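Each count and median of the 45 members was recomputed under 9 alternatives, 2 of them (count ratios and the 10% limit on shared exonic bases) chosen after seeing the data. With SFA, 3 members were at least 1.3-fold higher and this became 1 of the 22 members that overlap no other gene, and 2 under TMM and median-of-ratios scaling, where PRIM1 fell short of 1.3-fold. The 1 member at least 1.3-fold lower with SFA became 6 with a pseudocount of 0.1, with CPM summed over identifiers and on count ratios, 5 under TMM and 3 under median-of-ratios scaling, and 0 at a filter of 5 FPKM and without overlapping genes, and the SFA median of −0.08 turned to 0.037 without overlapping genes. With SFE, the 2 members at least 1.3-fold lower became 4 under TMM scaling and on count ratios, and 1 without overlapping genes and at the 10% limit. These changes came with a change of scale, filter or genes kept, and their cause was not tested. With no filter, 3 of 45 members were at least 1.3-fold higher with SFA against 6.43% of all genes, so that share was no longer below the background. No scaling moved the median of all genes by more than 0.1. The 13 differences of single members past 1.3-fold gave 65 values under the 5 alternatives that can change a single gene (pseudocount, both scalings, CPM and count ratios). Of these, 64 moved by less than counting error (TK1 with SFE: −0.62, and −0.72 under TMM scaling). None changed direction, but this was fixed beforehand. A pseudocount, CPM or a count ratio cannot change a sign, and both scalings moved values by far less than a 1.3-fold difference. The unchanged direction is therefore no support for these differences. The SFA share of counts, 0.00804 percentage points above DMSO, turned to −0.00336 without POLE3, an alternative also chosen after seeing the data. Counts of the members ranged upward from 124, which limits the precision of the lowest ones. No replicate could be left out. No paired analysis was possible because each group has 1 library.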
